A study of Mus musculus with 36 samples.

Results

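Interferon-stimulated genes are the antiviral and immune genes that cells switch on in response to interferons. The 41 genes described here were taken from a list of names covering nucleic acid sensors, signalling factors, antiviral effectors, antigen presentation genes and secreted proteins. All 41 were found among the 24284 genes of the FPKM files (fragments scaled by transcript length and library depth), with Ddx58 under that symbol.

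RNA was sequenced in 12 mouse libraries, and the 24 other samples of the series were not analysed here. By their labels all cells lacked MLL3 (Kmt2c), a histone H3 lysine 4 methyltransferase that acts at enhancers, so no group had wild-type MLL3. The control cells had the genotype MLL3-/-;MLL4flox/flox (called f/f), with a conditional allele of the related enzyme MLL4 (Kmt2d), and the double knockout cells had the genotype MLL3-/-;MLL4-/- (called DKO). Embryonic stem cells (ESC), grown on irradiated fibroblast feeders with LIF, and their embryoid bodies, kept 4 days in suspension in medium with no LIF, had 2 libraries per group. Immortalised embryonic fibroblasts in serum medium, and fibroblasts at day 20 of reprogramming by lentiviruses carrying Oct4, Sox, Klf4 and c-MYC, had 1 library per group. The sources used here do not say how many clones, embryos or cultures stand behind each group, and a mouse strain is named on chromatin samples only. Replicate 1 of the ESC and body groups was deposited in RPKM (reads scaled in the same way) and replicate 2 in FPKM from a separate batch. RPKM and FPKM are not on one scale, and differences between groups were taken inside a batch.

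Type I interferons bind the receptor of Ifnar1 and Ifnar2, whose kinases Jak1 and Tyk2 activate transcription factors that include Stat2. Stat2 and Irf9 are parts of a complex that binds the interferon-stimulated response element (ISRE) in the promoters of many of the genes described here. Interferon gamma acts through a different sequence, the GAS element. Fibroblasts are known to keep many of these genes at a low level without infection, and pluripotent cells are known for a weak response to interferon.

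The promoter stretches below show the ISRE core in the 4 members that held it and had the highest levels in f/f fibroblasts, the library in which the members stood highest. They come from RefSeq promoter windows of 300 bases around each start site, on GRCm38.p6. 32 of the 41 members had a window, and Dhx58, Zbp1, Usp18, Oas2, Mx1, Mx2, Rtp4, Parp9 and Parp14 had none. Each sequence reads 5′ to 3′ on the strand of the gene, and capitals mark the ISRE core (GAAA, any NN, GAAA) or its reverse complement.
Isg15, chr4:156200819-156200918, minus strand: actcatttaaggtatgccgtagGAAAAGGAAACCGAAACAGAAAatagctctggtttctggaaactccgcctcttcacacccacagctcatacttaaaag
Ifit1, chr19:34640775-34640888, plus strand: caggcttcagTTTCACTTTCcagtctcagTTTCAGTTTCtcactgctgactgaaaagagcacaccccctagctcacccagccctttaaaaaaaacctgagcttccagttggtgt
Bst2, chr8:71537493-71537612, minus strand: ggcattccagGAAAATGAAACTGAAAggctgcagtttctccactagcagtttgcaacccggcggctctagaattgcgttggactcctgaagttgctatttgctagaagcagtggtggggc
B2m, chr2:122147538-122147657, plus strand: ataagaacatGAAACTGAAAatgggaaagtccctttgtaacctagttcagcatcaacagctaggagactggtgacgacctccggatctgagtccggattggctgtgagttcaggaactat

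In Isg15, 3 overlapping copies of the core began 78, 72 and 66 bases before the start site. Ifit1 held 2 copies on the opposite strand, 104 and 85 bases before the start. Bst2 held 2 overlapping copies, 130 and 124 bases before the start, and B2m held 1 copy, 139 bases before it. Over both strands, the ISRE core was present in 15 of the 32 members with a window (46.9%), against 3.99% of 27025 genes. The GAS core TTCNNNGAA was present in 7 of the 32 (21.9%), against 9.55% of all genes. A match shows only that these letters are present, and binding was not measured.

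Depth behind the values lay between 11366201 reads (f/f bodies, replicate 2) and 38264158 reads (the fibroblast library labelled DKO). The targeted gene Kmt2d went from 13.5 RPKM in f/f ESC to 8.89 in DKO ESC in replicate 1 and from 18.7 to 10.7 FPKM in replicate 2. In bodies it went from 16.4 to 14.3 RPKM and from 15.4 to 10.1 FPKM. In fibroblasts it went from 14.4 FPKM in f/f to 23.5 under the DKO label, and at day 20 from 12.9 to 24.8, which runs against the direction of a loss. The value covers the whole transcript and does not isolate the deleted part, so it does not check the genotype, and those 2 libraries are called the libraries labelled DKO throughout. Kmt2c, the gene of MLL3, lay between 1.8 and 3.07 RPKM in replicate 1 of ESC and bodies and between 2.06 and 3.44 FPKM in the other libraries, and these whole-transcript values do not show its loss either. The fibroblast label was read against 10 fibroblast markers, which summed to 3266 FPKM in f/f fibroblasts against 273.2 in replicate 2 of f/f ESC, and to 2668 against 233.9 in the libraries labelled DKO. In f/f, 6 of the 10 were past 2-fold higher in fibroblasts than in these feeder-grown ESC and Thy1 was lower. In the libraries labelled DKO 4 were higher, and Thy1 and Dcn were lower. The leukocyte gene Ptprc stood at 0 and 0.00461 FPKM in the fibroblast pair. At day 20 the 8 ESC markers summed to 40 FPKM in f/f and 10.5 in the library labelled DKO, against 4246 and 3058 in replicate 2 of f/f and DKO ESC. In fibroblasts they summed to 7.52 in f/f and 7.31 in the library labelled DKO. Most of the 10.5 was Nanog, at 9.68 FPKM, which stood at 7.17 in the fibroblast library labelled DKO. In f/f day-20 cells most of the sum was Pou5f1 (Oct4), at 19.8, and Sox2, at 9.36.

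The interferon-stimulated genes were highest in the f/f fibroblasts. Of the 41 members, 29 had their highest value among the 8 FPKM libraries there, where 8.92% of 12970 genes did. The median member stood at 11 FPKM in f/f fibroblasts, 1.59 in the fibroblast library labelled DKO, 2.41 in f/f day-20 cells and 1.12 in the day-20 library labelled DKO. In replicate 2 of ESC it stood at 0.68 FPKM in f/f and 0.724 in DKO, and in replicate 2 of bodies at 1.91 and 1.17. Members at 5 FPKM or more numbered 27 in f/f fibroblasts, 13 in the fibroblast library labelled DKO, 16 in f/f day-20 cells and 11 in the day-20 library labelled DKO. The share of all genes at that level was between 35.4% and 36.2% in the 8 libraries. These are bulk samples, in which fewer cells of a type and less RNA per cell cannot be told apart.

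**Figure D1:**
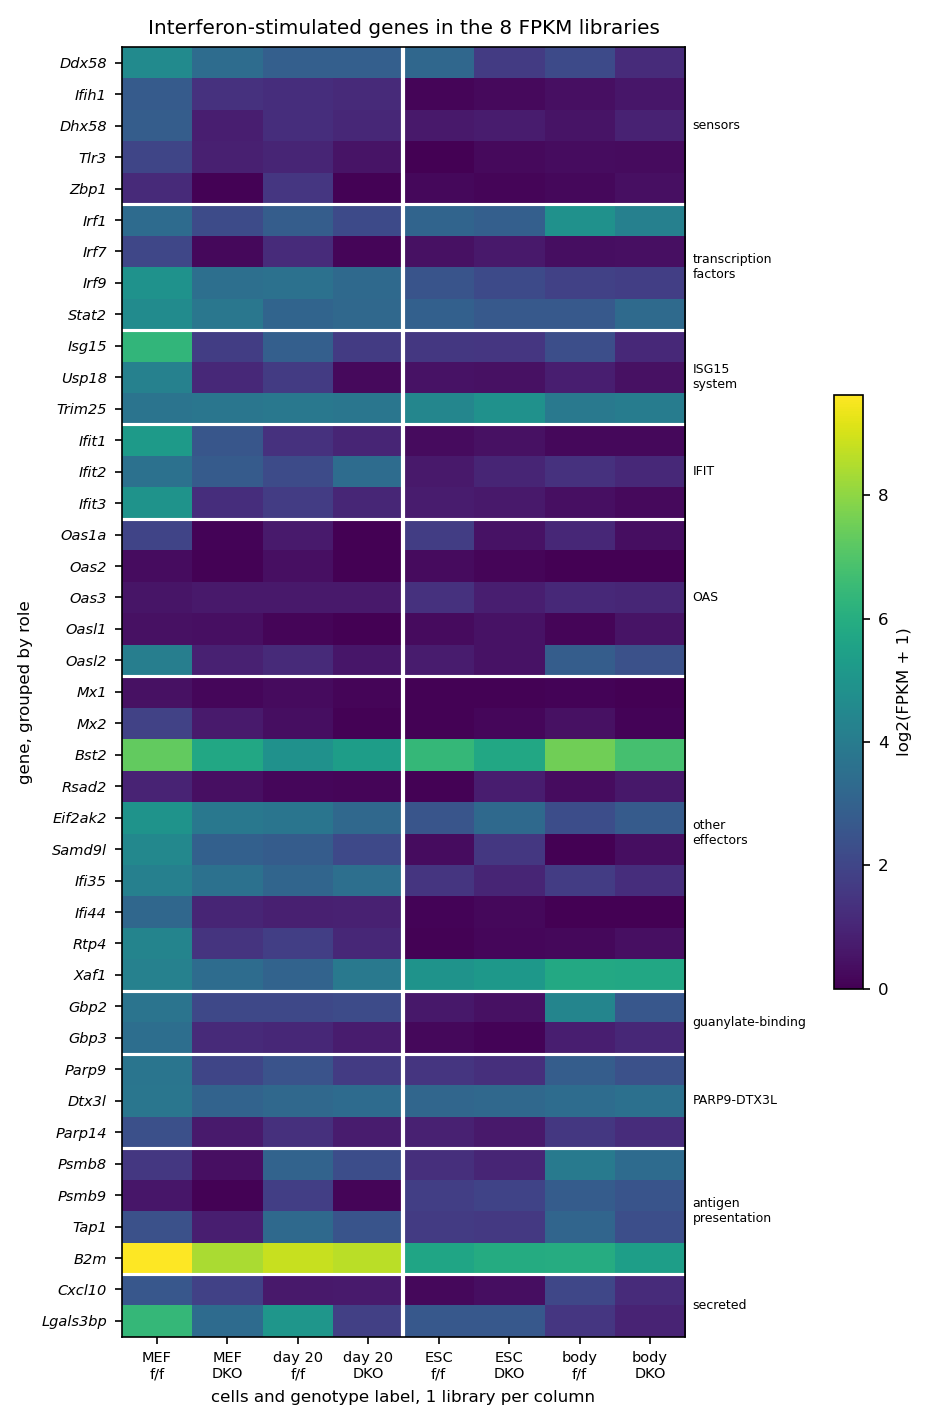
Level of each of the 41 genes as log2(FPKM + 1), coloured from 0 (dark) upward, with genes in rows grouped by role and 1 library per column. The f/f fibroblast column is the brightest for 29 of the 41 genes, while Bst2 and Xaf1 are higher in f/f bodies.

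With 1 library per group, the fibroblast and day-20 comparisons have no replicate check and no test. A difference was counted past 2-fold where log2(FPKM + 1) differed by at least 1 in a gene with a mean of at least 1 FPKM over both libraries. This scale understates changes of low genes. Intervals of fold values are 95% exact intervals from recovered read numbers, and they cover counting error only.

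In fibroblasts, 39 of the 41 members had a lower value in the library labelled DKO than in f/f, and 27 were past 2-fold lower, against 5.29% of 11970 genes. None was past 2-fold higher, against 3.85% of genes. The median difference over all 41 members was -1.22 on the log2(FPKM + 1) scale, and it was 0.04 over the genes that passed the filter. Of the 41 members, 34 passed that filter, and 10 of the 27 stood below 1 FPKM in the library labelled DKO. With a pseudocount of 5 in place of 1, 15 members were past 2-fold lower.

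**Figure D2:**
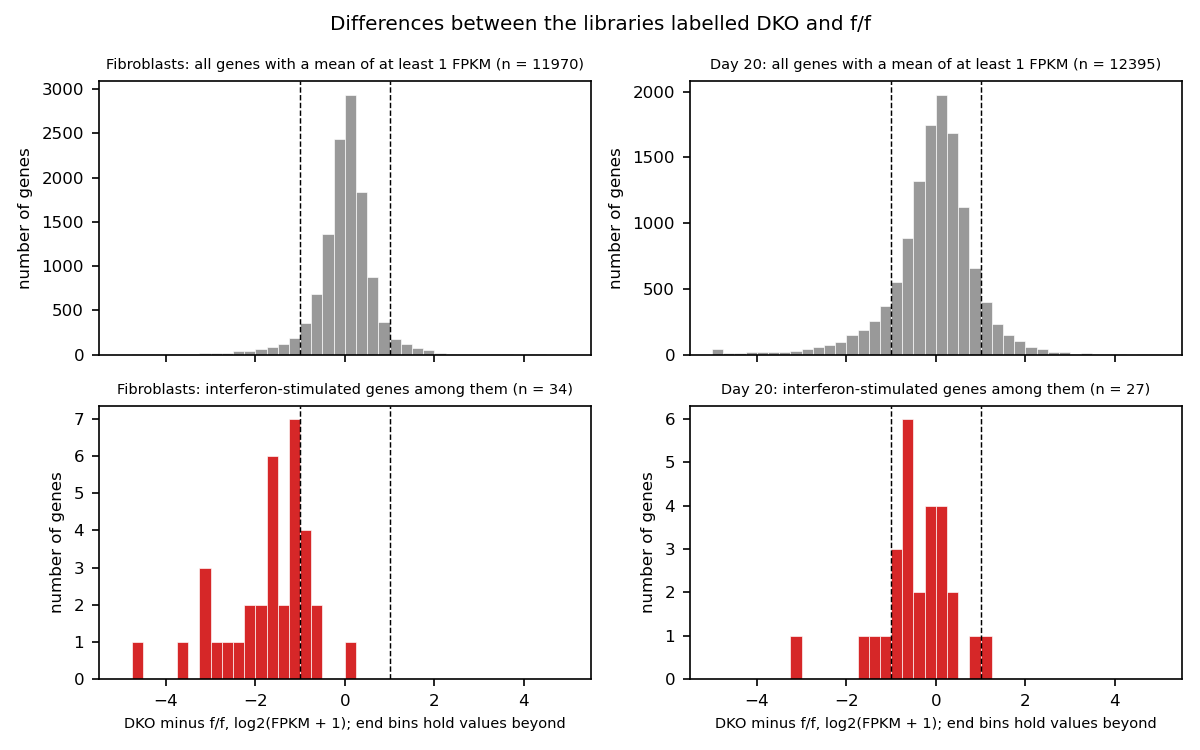
Histograms of the difference DKO minus f/f in log2(FPKM + 1) for genes with a mean of at least 1 FPKM (upper panels, grey) and for the interferon-stimulated genes among them (lower panels, red), in fibroblasts (left) and at day 20 (right), with dashed lines at 2-fold. In fibroblasts 27 of the 34 plotted members lie past the lower line, and at day 20 4 of 27 do.

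At day 20 the differences were smaller in number. Of the 41 members, 31 had a lower value in the library labelled DKO, 4 were past 2-fold lower (against 11.3% of 12395 genes) and 1 was past 2-fold higher (against 8.41%). Of the 4, Usp18 and Psmb9 stood below 1 FPKM in the library labelled DKO. The count of 4 lower members lay near that background as a share of the 27 members that passed the filter. The median difference over the 41 members was -0.34, beside 0.04 over all genes that passed. Isg15, Usp18 and Lgals3bp were past 2-fold lower in the library labelled DKO at both stages, and 29 members had a lower value at both.

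In the accounts by role that follow, 4 values in a row are FPKM in f/f fibroblasts, the fibroblast library labelled DKO, f/f day-20 cells and the day-20 library labelled DKO, in that order.

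Among the sensors, 4 of 5 were past 2-fold lower in the fibroblast library labelled DKO and none at day 20. Ddx58 (RIG-I), which detects viral RNA ends in the cytoplasm, stood at 23.5, 9.64, 6.49 and 6.53 FPKM. Ifih1 (MDA5), which detects long double-stranded RNA, stood at 5.77, 1.59, 1.37 and 1.21. Dhx58 (LGP2), their regulator, stood at 6.22, 0.737, 1.39 and 1.12. For these 3 genes the f/f fibroblasts stood above the other libraries, and the day-20 pair differed little. The endosomal sensor Tlr3 lay between 0.434 and 3.03 FPKM in the 4 libraries, with its highest value in f/f fibroblasts. Zbp1, a sensor of Z-form nucleic acids, was higher in f/f than in the library labelled DKO at both stages, at 1.2 against 0.0484 FPKM (75 and 4 reads) and 1.91 against 0.0395 (103 and 2 reads), and it did not pass the filter at either.

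The transcription factors of the pathway were also lower in the fibroblast library labelled DKO, 3 of 4 past 2-fold. Irf9, the DNA-binding subunit of the complex that recognises the ISRE, stood at 29.2, 10.3, 11.1 and 8.85 FPKM. Stat2, its partner, stood at 23.7, 13, 7.64 and 8.41, a fibroblast difference of -0.82 that is not past 2-fold. Irf1, which acts downstream of interferon gamma, stood at 9.24, 3.6, 6.23 and 3.46. Irf9 and Stat2 were thus highest in f/f fibroblasts, and Irf1 was lower in the library labelled DKO at both stages. Irf7, which amplifies type I interferon production, stood at 3.12 and 0.155 FPKM in fibroblasts (168 and 11 reads) and at 1.29 and 0.0919 at day 20 (60 and 4 reads).

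Isg15, a ubiquitin-like protein that is attached to other proteins, had the largest difference of all members in fibroblasts on the log2(FPKM + 1) scale. It stood at 79.2, 2.39, 6.56 and 2.2 FPKM, which is 33.2-fold lower in the fibroblast library labelled DKO (26.1 to 42.9; 1731 and 69 reads) and 2.98-fold lower at day 20 (2.06 to 4.38; 124 and 39 reads). Usp18, the protease that removes Isg15 and restrains receptor signalling, stood at 17.6, 1.14, 2.23 and 0.193. Its values were 15.5-fold (12.2 to 19.8) and 11.6-fold (5.65 to 27.6) lower in the libraries labelled DKO. The ubiquitin ligase Trim25 stood at 12.1, 12.6, 13.5 and 12.9, with no library standing apart.

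Ifit proteins bind foreign RNA and block its translation. Ifit1 stood at 36.6, 4.95, 1.61 and 1.02 FPKM, 7.38-fold lower in the fibroblast library labelled DKO (6.71 to 8.14). Ifit3 stood at 29.7, 1.41, 2.26 and 1.03, 21-fold lower (17.3 to 25.8). Both were high in f/f fibroblasts and low in the other libraries. Ifit2 had another order, at 11, 5.84, 3.64 and 9.46: it was lower by 0.82 on the log2 scale in the fibroblast library labelled DKO, which is not past 2-fold, and it was the only member past 2-fold higher in the day-20 library labelled DKO (1.17). Genes of this family are alike in sequence, and how shared reads were assigned is not given in the sources used here.

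The Oas genes make the oligoadenylates that activate RNase L, and the Oasl genes encode related proteins. Oasl2 stood at 16.5, 0.842, 1.19 and 0.504 FPKM, 19.6-fold lower in the fibroblast library labelled DKO (16 to 24.2; 1495 and 101 reads). Oas1a stood at 2.89 FPKM in f/f fibroblasts and at 0.0692 in the library labelled DKO (158 and 5 reads), and at day 20 it gave 30 reads in f/f and 0 in the library labelled DKO, at least 9.36-fold lower with 3 reads taken as the floor per library. Oas2 gave 29 and 4 reads in fibroblasts and 29 and 0 at day 20, where it was at least 9.05-fold lower by the same floor. The other two were low in these 4 libraries, with Oas3 between 0.462 and 0.593 FPKM and Oasl1 between 0.0201 and 0.342.

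Of the 10 other effectors, 6 were past 2-fold lower in the fibroblast library labelled DKO and none at day 20. Bst2 (tetherin), which holds budding virus at the cell surface, stood at 159.9, 53.4, 28.5 and 40.3 FPKM. Eif2ak2 (PKR), a kinase that stops translation on double-stranded RNA, stood at 29.8, 13.5, 12.4 and 8.45. The antiviral restriction factor Samd9l stood at 21.7, 6.69, 5.99 and 3.35. All 3 were highest in f/f fibroblasts, but at day 20 Bst2 was higher in the library labelled DKO while the other two were lower. Rtp4 stood at 19.5, 1.76, 2.41 and 1.09 FPKM, 11-fold lower in the fibroblast library labelled DKO (9.02 to 13.6). Ifi44 stood at 8.28, 0.989, 0.797 and 0.852, so that f/f fibroblasts alone were above 1 FPKM. Ifi35 stood at 17.4, 11.2, 7.7 and 10.4, with no difference past 2-fold between genotypes. Xaf1, a protein that binds the apoptosis inhibitor XIAP, stood at 17.9, 9.68, 7.37 and 13.8, lower by 0.83 on the log2 scale in the fibroblast library labelled DKO and higher by 0.82 at day 20. The GTPases Mx1 and Mx2 and Rsad2 (viperin) were low: Mx2 reached 2.77 FPKM and Rsad2 0.923, both in f/f fibroblasts, and Mx1 lay between 0.0861 and 0.349.

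Gbp2 and Gbp3, guanylate-binding proteins that act on intracellular pathogens, were both past 2-fold lower in the fibroblast library labelled DKO. Gbp2 stood at 11.9, 3.3, 3.27 and 3.65 FPKM and Gbp3 at 10.2, 1.21, 1.1 and 0.661, again with f/f fibroblasts apart from the rest. Parp9 and Dtx3l form a complex that modifies proteins with ubiquitin and ADP-ribose. Parp9 stood at 12.3, 3.04, 4.49 and 2.19, 4.05-fold lower in fibroblasts (3.62 to 4.54). Dtx3l stood at 12.9, 7.31, 8.62 and 9.36, not past 2-fold in either pair. Parp14, an ADP-ribosyltransferase, stood at 4.04 FPKM in f/f fibroblasts and at 0.613 in the library labelled DKO, and at 1.52 and 0.671 at day 20.

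The antigen presentation genes load peptides onto class I molecules. B2m, the light chain of class I and the most abundant member, stood at 789.2, 340.7, 456.1 and 399.5 FPKM. Tap1, the peptide transporter, stood at 4.22, 0.753, 8.88 and 4.62. Psmb8, an immunoproteasome subunit, stood at 1.95, 0.321, 7.45 and 3.84. B2m, Tap1 and Psmb8 were past 2-fold lower in the fibroblast library labelled DKO but not at day 20, and Tap1 and Psmb8 had their highest values in f/f day-20 cells. Psmb9, another immunoproteasome subunit, stood at 0.515, 0.0324, 2.43 and 0.106, 22.9-fold lower in the day-20 library labelled DKO (6.02 to 195; 49 and 2 reads).

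Of the secreted proteins, Lgals3bp, a galectin-binding glycoprotein, stood at 83.5, 9.31, 31.9 and 2.56 FPKM. It was 8.97-fold lower in the fibroblast library labelled DKO (8.32 to 9.69) and 12.4-fold lower at day 20 (10.4 to 15), the largest difference between genotypes among the members that passed the day-20 filter on the log2 scale. Cxcl10, a chemokine that attracts T cells, stood at 5.16, 2.61, 0.581 and 0.621, with no difference past 2-fold between genotypes.

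**Figure D3:**
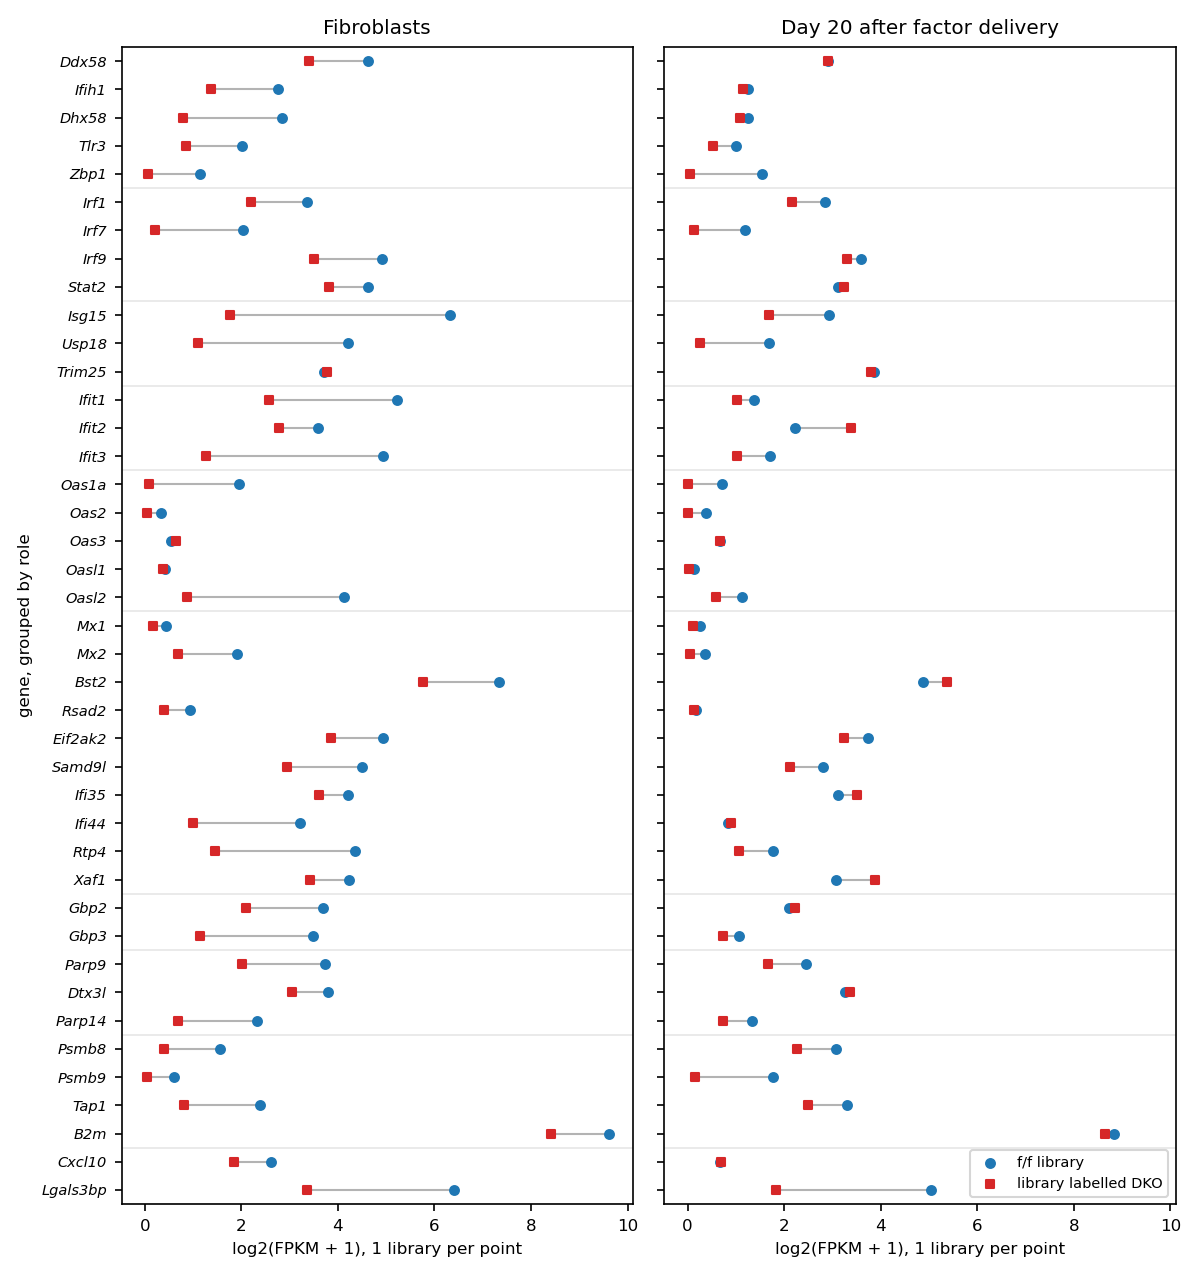
Each row is 1 of the 41 genes, with log2(FPKM + 1) in the f/f library (blue circle) and in the library labelled DKO (red square), in fibroblasts (left) and at day 20 (right), 1 library per point. The squares lie left of the circles for 39 genes in fibroblasts and for 31 at day 20, and Lgals3bp has the longest line at day 20.

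Markers of other cells were read beside these differences. The 10 haematopoietic and macrophage markers summed to 5.45 FPKM in f/f fibroblasts and 5.47 in the library labelled DKO, with 3 of 10 at 0 in each. The 10 fibroblast markers summed to 3266 and 2668 FPKM, and 5 of them (Col1a1, Thy1, Dcn, Lum and Twist2) were past 2-fold lower in the library labelled DKO. The same 5 were past 2-fold lower at day 20, where the sums were 13189 and 9616, and Fap was past 2-fold higher there, at 2.11 and 9.78 FPKM. The list did not move as one: at both stages Col1a2, Col3a1 and Fap had a higher value in the library labelled DKO. Postn and Pdgfrb were lower at both, but not past 2-fold. Col1a2 stood at 1387 and 1720 FPKM in fibroblasts and at 2663 and 3894 at day 20. The 5 epithelial markers summed to 42.7 FPKM in f/f day-20 cells and 0.243 in the library labelled DKO. The part of these marker differences in the interferon-stimulated genes was not tested.

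The list of 53 other genes of the pathway was lower in fewer cases. In fibroblasts 37 of the 53 passed the filter. Of these 37, 7 were past 2-fold lower in the library labelled DKO (against the 5.29% of genes passing, given above) and 0 were higher. The 9 interferon ligands summed to 0.263 FPKM in f/f fibroblasts and 0.347 in the library labelled DKO, and none passed the filter. None of the 6 receptor genes was past 2-fold: Ifnar1 stood at 21.2 and 19.4 FPKM and Ifnar2 at 11.8 and 19.5. The kinases Jak1 (47 and 41.6 FPKM) and Tyk2 (5.9 and 5.03) were not past 2-fold either. Tmem173 (STING, the adaptor of cytoplasmic DNA sensing) was, at 10.3 and 2.47 FPKM. The lower genes also included 5 class I genes: the transcriptional activator Nlrc5, the peptide transporter subunit Tap2, its partner Tapbp, the proteasome activator subunit Psme2 and the peptidase Erap1, with Erap1 at 12.2 and 3.18 FPKM. At day 20, 39 of the 53 passed. Of these 39, none was higher and 3 were past 2-fold lower in the library labelled DKO, a smaller share than the 11.3% of genes passing. They were Tmem173 at 12.1 and 3.62, Erap1 at 5.45 and 1.53, and Socs1, which inhibits Jak kinases, at 12.4 and 5.33.

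The change from fibroblasts to day 20 was then read within each genotype. It shares the f/f fibroblast library with the fibroblast comparison above, so the values are given side by side only. In f/f cells 27 of the 41 members were past 2-fold lower at day 20 (against 5.75% of 12435 genes) and 2 were past 2-fold higher (against 7.17%). The filter was passed by 36 of the 41. The median over the 41 was -1.28, beside -0.00 over all genes that passed. Ifit1 differed by -3.85 (22.8-fold lower, 18.7 to 27.9), Isg15 by -3.41 (12.1-fold, 10.1 to 14.6), Ifit3 by -3.23 and Oasl2 by -3.00. The 2 higher members were the immunoproteasome genes Psmb8 (1.52) and Psmb9 (1.18), and Tap1 stood just short of the limit at 0.92. Of the 53 pathway genes, 37 passed the filter. Among these 37, 4 were past 2-fold higher (against 7.17% of genes passing) and 3 were lower (against 5.75%). Tap2 went from 5.83 to 15.3 FPKM, H2-K1 from 33.8 to 90.7, Socs1 from 4.03 to 12.4 and Socs3 from 19.6 to 47.2. The lower ones included Erap1, from 12.2 to 5.45, and Samhd1, from 32.4 to 12.4.

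Between the libraries labelled DKO, 24 of the 41 members passed the filter. Of these 24, 3 were past 2-fold lower at day 20 (against 3.75% of 11830 genes) and 2 were past 2-fold higher (against 4.43%). The median was -0.10 over the 41 members. The 3 lower members were Ifit1 (-1.56), Lgals3bp (-1.53) and Cxcl10 (-1.16), and the 2 higher members were Psmb8 (1.87) and Tap1 (1.68). Psmb8 was therefore past 2-fold higher at day 20 in both genotypes, and Ifit1, Lgals3bp and Cxcl10 past 2-fold lower in both. Whether the change differed between genotypes could not be tested with 1 library per group. The fibroblast markers summed to 3266 FPKM in f/f fibroblasts and 13189 at day 20, and to 2668 and 9616 in the libraries labelled DKO. Their part in these values was not tested.

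**Figure D4:**
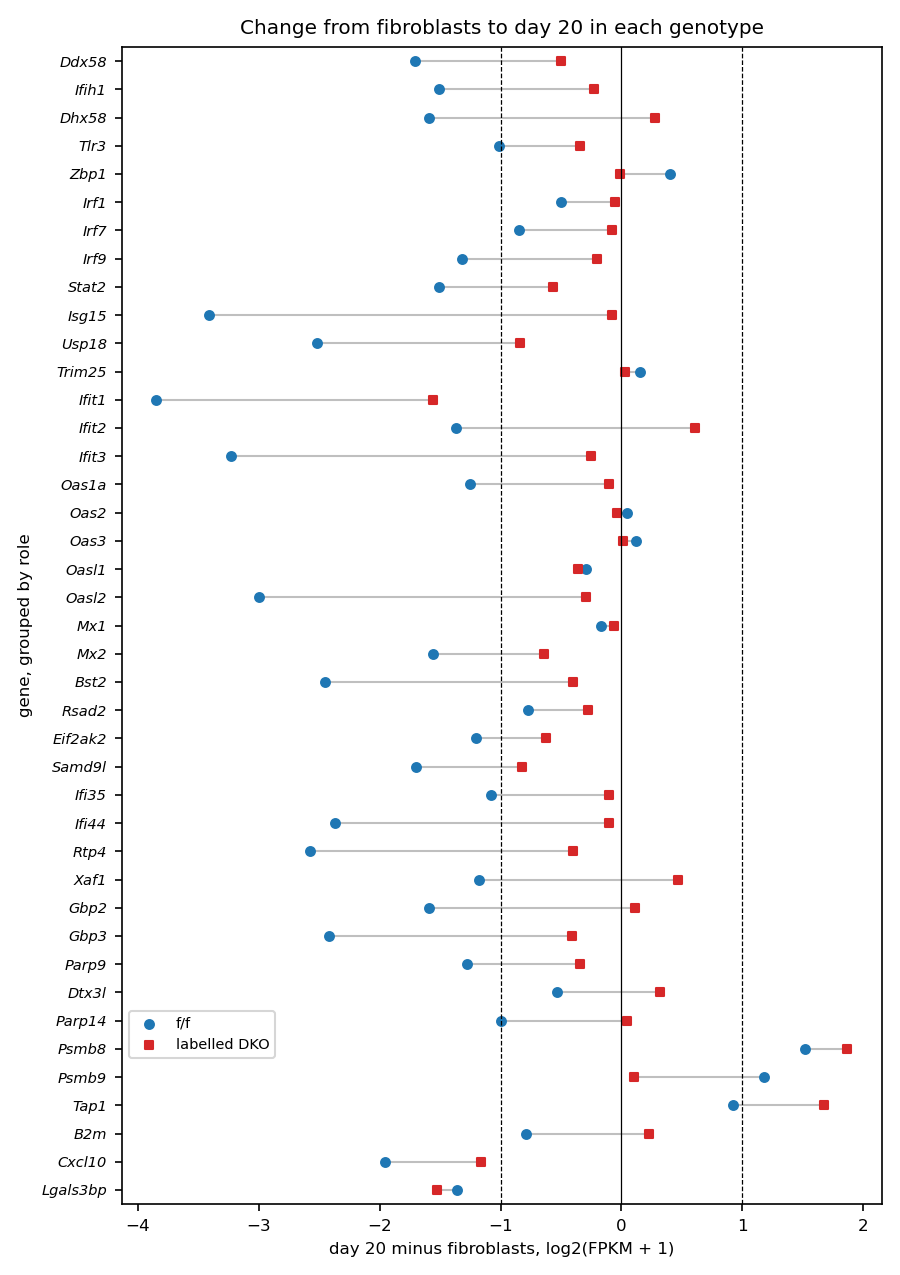
Difference between day 20 and fibroblasts in log2(FPKM + 1) for each of the 41 genes, in f/f (blue circles) and in the libraries labelled DKO (red squares), with dashed lines at 2-fold. Most circles lie to the left of their squares, and Psmb8, Psmb9 and Tap1 lie to the right of 0 in both genotypes.

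Fibroblasts and ESC can be compared within the second batch. In f/f cells 26 of the 41 members were past 2-fold higher in fibroblasts than in replicate 2 of ESC (against 19.0% of 12735 genes) and 1, Psmb9, was past 2-fold lower (against 22.3%). Of the 26, 17 stood below 1 FPKM in ESC. The filter was passed by 36 of the 41. The median over the 41 was 1.98, beside -0.12 over all genes that passed. In the libraries labelled DKO 21 of the 41 members passed. Of these 21, 10 were past 2-fold higher (against 16.7% of 12531 genes) and 3 lower (against 19.2%). The median over the 41 was 0.51, and 5 of the 10 stood below 1 FPKM in ESC. The 10 included B2m, from 58.9 FPKM in ESC to 340.7 in fibroblasts, Ifi35, from 0.99 to 11.2, and Ddx58, from 2.19 to 9.64. The 3 lower members were Psmb9, Xaf1 and Trim25.

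In ESC and bodies, 2 libraries per group allowed a test. The limma model with the 4 groups and the batch was fitted to log2(value + 1) over all 12466 genes with a mean of at least 1, and p-values were adjusted by Benjamini-Hochberg over all of them. It tested 21 of the 41 members. The other 20 had a mean below 1 and are given by their levels only. In what follows, values run f/f ESC, DKO ESC, f/f bodies and DKO bodies, in RPKM for replicate 1 and then in FPKM for replicate 2.

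In DKO against f/f ESC, 1 member changed (4.24% of all genes tested did), and it fell. Ddx58 stood at 8.13, 2.49, 5.23 and 1.17 RPKM and at 8.36, 2.19, 3.52 and 1.28 FPKM. In each batch DKO lay below f/f, in ESC and in bodies. The log2 change in ESC was -1.47 ± 0.18 (SE, n = 2 per group; limma, adjusted p = 0.0172). Without any 1 of the 4 ESC libraries the change stayed between -1.57 and -1.37, and the limma adjusted p rose to between 0.113 and 0.14. The median change was -0.01 over the 41 members and 0.02 over all genes tested. Eif2ak2 stood at 3.15 and 5.91 RPKM and at 4.8 and 8.69 FPKM in f/f and DKO ESC, higher in DKO in both batches, and did not pass (0.74 ± 0.27; limma, adjusted p = 0.177).

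In DKO against f/f bodies, 3 members changed (4.44% of all genes tested did). Isg15 fell by 1.39 on the log2 scale (SE 0.22, n = 2; limma, adjusted p = 0.027). It stood at 1.15, 0.335, 2.69 and 0.229 RPKM and at 1.96, 1.84, 3.96 and 1.18 FPKM, so that f/f bodies were highest in each batch. Few reads lay behind the f/f and DKO body values of Isg15, 38 and 4 in replicate 1 and 34 and 12 in replicate 2. Ddx58 fell by 1.26 (SE 0.18, n = 2; limma, adjusted p = 0.0229). Stat2 rose by 0.84 (SE 0.16, n = 2; limma, adjusted p = 0.0458), at 5.5, 4.73, 4.83 and 10.9 RPKM and 6.65, 5.43, 5.43 and 9.13 FPKM. DKO bodies were the highest group for Stat2 in each batch. Gbp2 had the largest difference in bodies, -2.07 ± 0.54 (SE, n = 2), and did not pass (limma, adjusted p = 0.0944). No member was called without either f/f body library or without replicate 1 of DKO bodies, 1 was without either f/f ESC library, and 6 were without replicate 2 of DKO bodies. The 1 called without an f/f ESC library was not Isg15 (limma, adjusted p = 0.0542 and 0.0538), Ddx58 (0.051 and 0.0506) or Stat2 (0.083 and 0.0827). Of the 8 fits that left out 1 library, Stat2 lost its call in 7, Isg15 in 6 and Ddx58 in 5. In edgeR on reads 1 member was called in ESC and 2 in bodies.

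Cell type markers also differed between the bodies in bulk RNA. Markers of primitive streak and mesoderm summed to 158.4 RPKM and 115.8 FPKM in f/f bodies and to 7.52 and 8.84 in DKO bodies. Epithelial markers summed to 517.4 RPKM and 841.1 FPKM in f/f bodies and to 158.7 and 235.5 in DKO bodies, and in ESC to 271.1 and 259.4 in f/f and 186.1 and 141.3 in DKO. Both sums were thus lower in DKO bodies in each batch. Within the epithelial list Epcam differed little, at 103.0 and 89.6 RPKM and at 123.3 and 120.5 FPKM in f/f and DKO bodies. Fibroblast and feeder markers summed to 27 RPKM and 69.3 FPKM in f/f bodies and to 16.9 and 28.8 in DKO bodies. In ESC they summed to 37.5 RPKM and 273.2 FPKM in f/f and to 51.3 and 233.9 in DKO, in opposite order in the 2 batches. The RPKM sums of the 10 haematopoietic markers leave out Cd68, which had no value in replicate 1. These markers summed to 47 RPKM and 60.8 FPKM in f/f ESC and to 81 and 142.5 in DKO ESC. Most of that gap was Laptm5, at 36.2 against 12 RPKM and at 124.7 against 43.1 FPKM in DKO against f/f. Lyz2, Adgre1 and Tyrobp were also higher in DKO ESC in each batch. Ptprc was lower in DKO ESC in each batch and stayed below 0.1 in the 4 ESC libraries. Csf1r, Itgam, Cd14 and Fcgr1 had opposite orders in the 2 batches. Cd68, with a value in the second batch alone, was lower there. In bodies the haematopoietic sums were 8.28 RPKM and 15.7 FPKM in f/f and 16.8 and 15.6 in DKO. The part of these values in the called genes was not tested.

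In f/f bodies against f/f ESC, 7 members rose and 2 fell (12.0% of all genes tested changed, 8.13% upward). Gbp2 stood at 5.53, 0.681, 22.9 and 3.64 RPKM and at 0.529, 0.341, 20 and 5.08 FPKM, and rose by 2.83 ± 0.54 (SE, n = 2; limma, adjusted p = 0.028). Oasl2 stood at 2.79, 0.904, 10.5 and 2.59 RPKM and at 0.68, 0.4, 6.17 and 4.22 FPKM, and rose by 1.85 ± 0.38 (limma, adjusted p = 0.0322). Irf1 stood at 17.3, 15.3, 42.5 and 13 RPKM and at 7.5, 6.58, 28.4 and 17.1 FPKM, and rose by 1.52 ± 0.36 (limma, adjusted p = 0.0449). In each of these genes f/f bodies were the highest group in both batches. Bst2 stood at 59.8, 54.5, 136.9 and 104.1 RPKM and at 84.5, 54.3, 186.8 and 110.0 FPKM, and rose by 1.16 ± 0.15 (limma, adjusted p = 0.0159). Parp9 stood at 3.23, 1.85, 7.44 and 2.98 RPKM and at 1.78, 1.46, 6.1 and 4.19 FPKM, a rise of 1.17. Tap1 stood at 3.2, 3.4, 6.5 and 3.38 RPKM and at 2.22, 2.02, 7.81 and 4.03 FPKM, a rise of 1.15. Both had the same limma adjusted p, 0.0331. Psmb9 stood at 1.68, 1.45, 4.06 and 1.98 RPKM and at 2.42, 2.82, 5.89 and 4.61 FPKM, a rise of 0.96 ± 0.19 (limma, adjusted p = 0.0291).

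The 2 that fell in f/f bodies both act in RNA sensing. Ddx58 fell by 0.80 on the log2 scale (SE 0.18; limma, adjusted p = 0.0423). Trim25 stood at 28.9, 35.7, 20.4 and 26.1 RPKM and at 20.4, 28.1, 13.8 and 15.6 FPKM, and fell by 0.51 (SE 0.12; limma, adjusted p = 0.0479). Trim25 was lower in bodies than in ESC of the same genotype in every batch. Without any 1 of the 4 f/f libraries 0 members were called in this contrast by limma, and without either DKO ESC library 3 were. In edgeR on reads 5 were called.

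In DKO bodies against DKO ESC, 0 members were called by limma (0.826% of all genes tested were), while 6 were higher and 4 lower at an unadjusted p under 0.05. EdgeR on reads called 0, with 11 at an unadjusted p under 0.05. Bst2 had a difference of 0.96 ± 0.15 (SE, n = 2; limma, adjusted p = 0.0564) and Stat2 one of 0.85 ± 0.16 (limma, adjusted p = 0.0764). The difference of the genotype effects in bodies and ESC was tested as an interaction, and 0 members were called by limma (0% of all genes tested were). At an unadjusted p under 0.05 limma had 1 higher and 2 lower, and edgeR called 0, with 2 at an unadjusted p under 0.05. Stat2 had the smallest p among the members, with an interaction of 1.06 ± 0.23 (limma, adjusted p = 0.151). The rise of a member in f/f bodies was thus not shown to differ from its change in DKO bodies.

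**Figure D5:**
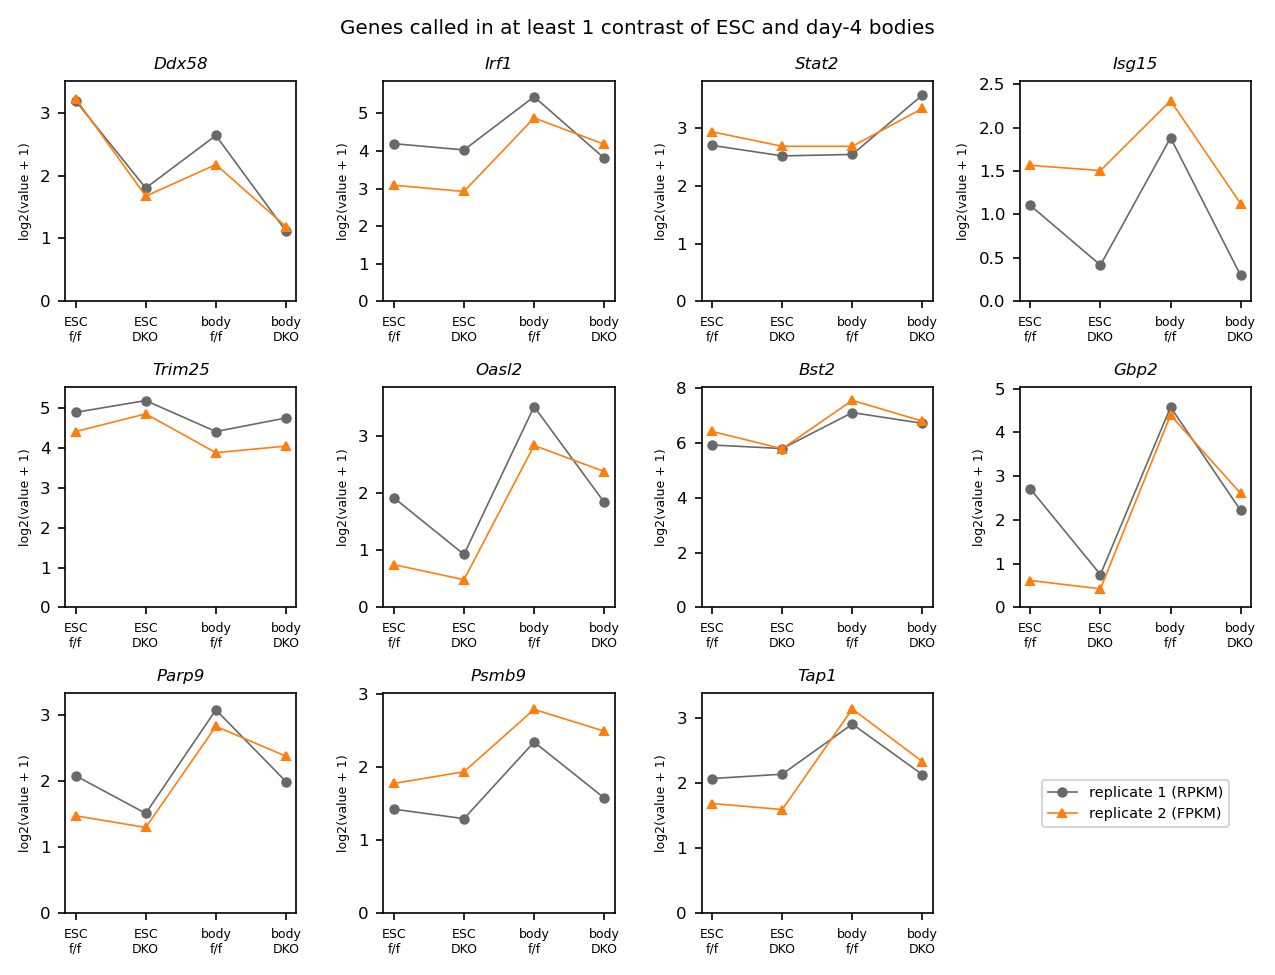
Level of the 11 members called in at least 1 contrast, as log2(value + 1), in ESC and day-4 bodies of each genotype, with grey circles for replicate 1 (RPKM), orange triangles for replicate 2 (FPKM) and lines joining the libraries of a batch. Ddx58 is lower in DKO in each batch, and Gbp2, Oasl2, Irf1, Bst2, Parp9, Psmb9 and Tap1 peak in f/f bodies.

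The tested members that did not pass in any contrast included genes that were high in fibroblasts. B2m stood at 17.5, 34.2, 46.3 and 31.2 RPKM and at 49.1, 58.9, 61.3 and 41.1 FPKM. Irf9 stood at 4.03, 4.04, 3.77 and 2.21 RPKM and at 4.67, 3.47, 2.65 and 2.43 FPKM, and Eif2ak2 in bodies at 5.39 and 7.39 RPKM and 3.9 and 5.77 FPKM. Psmb8, the immunoproteasome subunit, stood at 2.4, 0.538, 8.06 and 1.55 RPKM and at 1.44, 0.987, 14.2 and 9.29 FPKM, highest in f/f bodies in both batches, with a difference of 2.03 ± 0.53 from f/f ESC (limma, adjusted p = 0.0564). Cxcl10 was also highest in f/f bodies in both batches, at 1.07, 1.52, 2.42 and 1.75 RPKM and 0.169, 0.296, 3.12 and 1.28 FPKM (1.27 ± 0.32; limma, adjusted p = 0.0519). Lgals3bp stood at 1.43, 1.59, 1.43 and 0.976 RPKM and at 5.28, 5.31, 1.91 and 0.959 FPKM. In the second batch Lgals3bp was lower in bodies than in ESC of both genotypes. In the first batch f/f ESC and f/f bodies had the same value, and DKO bodies were lower than DKO ESC. Ifi35 stood at 1.72, 0.745, 2.17 and 0.889 RPKM and at 1.81, 0.99, 2.26 and 1.37 FPKM, lower in DKO in both batches and at both stages, and did not pass in ESC (-0.57 ± 0.17; limma, adjusted p = 0.122) or in bodies (-0.60 ± 0.17; limma, adjusted p = 0.111). Dtx3l stood at 4.22, 2.5, 7.3 and 2.6 RPKM and at 8.14, 8.5, 9.7 and 10.6 FPKM, lower in DKO in the first batch alone. Xaf1 stood at 0.0627, 0.409, 0.248 and 0.249 RPKM and at 29.5, 34.4, 55.6 and 54 FPKM, and what sets its 2 batches apart was not tested.

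Apart from Oas1a, Oas3, Irf7, Rsad2 and Oasl1, the members that follow were high in f/f fibroblasts. They fell below the mean needed for the test in ESC and bodies, so their low levels there are a result of that selection. Ifit1 stood at 0.123, 0.0768, 0.366 and 0.213 RPKM and at 0.211, 0.335, 0.167 and 0.141 FPKM. Ifit3 stood at 0.0272, 0, 0.134 and 0.0432 RPKM and at 0.673, 0.558, 0.308 and 0.186 FPKM. No value of either reached 1. Usp18 stood at 0.276, 0.172, 0.938 and 0.122 RPKM and at 0.393, 0.341, 0.745 and 0.336 FPKM, highest in f/f bodies in each batch. Rtp4 stood at 0.276, 0.0322, 0.579 and 0.22 RPKM and at 0.0295, 0.118, 0.168 and 0.331 FPKM. Gbp3 stood at 0.432, 0.134, 1.46 and 0.409 RPKM and at 0.14, 0.0781, 0.77 and 1.1 FPKM. For Rtp4 and Gbp3 the highest group was f/f bodies in the first batch and DKO bodies in the second. For Rtp4 the order in the second batch rests on 1, 4, 3 and 7 reads. Samd9l stood at 0.214, 0.941, 0.171 and 0.486 RPKM and at 0.261, 1.95, 0 and 0.265 FPKM, highest in DKO ESC in both batches. Ifih1 stood at 0.059, 0.0734, 0.388 and 0.227 RPKM and at 0.101, 0.177, 0.303 and 0.484 FPKM, higher in bodies than in ESC. Dhx58 stood at 1.04, 1.24, 1.2 and 1.07 RPKM and at 0.577, 0.674, 0.438 and 0.893 FPKM, and Ifit2 at 0.536, 0.936, 1.04 and 0.985 RPKM and 0.587, 0.988, 1.6 and 1.17 FPKM. Ifi44 gave no read in the 4 libraries of the first batch and stood at 0.0797, 0.16, 0 and 0.0255 FPKM in the second. Oas1a, which was low in fibroblasts of the DKO label, was also lower in DKO than in f/f in both batches and at both stages: 0.863 and 0.107 RPKM and 2.33 and 0.394 FPKM in ESC, and 0.539 and 0.137 RPKM and 1.12 and 0.275 FPKM in bodies. Usp18, Ifit3 and Oas3 were lower in DKO in all of these pairs too, while Samd9l, Irf7, Rsad2 and Oasl1 were higher in all of them. Rsad2 stood at 0.143, 0.843, 0.198 and 1.11 RPKM and at 0.049, 0.724, 0.232 and 0.549 FPKM. Oasl1 stood at 0.23, 0.238, 0.177 and 0.956 RPKM and at 0.218, 0.394, 0.0828 and 0.42 FPKM. Several of these values rest on few reads, and none of these genes was tested.

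Of the 53 pathway genes, 37 were tested. In ESC, 1 rose and 2 fell in DKO, where 4.24% of all genes tested changed. H2-K1, a class I heavy chain, rose by 0.99 (limma, adjusted p = 0.0495), close to the threshold of 0.05. The DNA sensor Aim2 fell by 2.31 on the log2 scale (limma, adjusted p = 0.0142). The histone methyltransferase Setdb1, which silences endogenous retroviruses, fell by 0.61 (limma, adjusted p = 0.0299). In bodies 1 fell and 0 rose in DKO, where 4.44% of all genes tested changed. It was the peptide-loading factor Tapbp, which fell by 1.17 (limma, adjusted p = 0.0399). In f/f bodies against f/f ESC, 6 rose and 3 fell (12.0% of all genes tested changed, 8.13% upward). The class I genes Erap1 (1.89), Tap2 (1.5), Tapbp (1.41) and H2-K1 (1.15), the kinase Jak2 (0.86) and the nucleotidase Samhd1 (0.80) rose. Those that fell were Socs3, Aim2 and Trim28, by 2.56, 1.06 and 0.67. Socs3, a feedback inhibitor that LIF induces through Stat3, was the only one to change in DKO bodies against DKO ESC. It fell there by 2.54 (limma, adjusted p = 0.0363), and 0.826% of all genes tested changed. None of the tested receptor genes changed in any of these contrasts.

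The promoter windows shown above can be read against the fibroblast values. The 15 members with the ISRE core had a median difference of -1.39 between the fibroblast library labelled DKO and f/f, from -4.57 (Isg15) to 0.11 (Oas3), and 11 of them were past 2-fold lower. The 17 with a window and no core had a median of -1.15, from -3.25 (Oasl2) to 0.06 (Trim25), and 10 were past 2-fold lower and 7 were not.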

How the data were processed

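The members, gene lists and comparisons were chosen with earlier results of these data known. Replicate 1 of ESC and bodies was deposited as read counts for RefSeq transcripts, per the file headers. RPKM values were deposited beside those counts. For every other RNA library the authors deposited FPKM for each Entrez gene, per the file headers. Both sets are on mm9, per the submitters' processing notes, which list SICER 1.1 with bedtools 2.16 for replicate 1 and CASAVA 1.8.2 with SICER for the other libraries. Strand setting, annotation and aligner are not given in the sources, which leaves overlapping or near-identical genes uncertain.

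Transcripts were joined to genes by RefSeq accession (28436 of 29082 matched, giving 22463 genes, 22456 of them in the FPKM files), and a gene took the value of its transcript with most reads. The steps between low FPKM values gave the depth: 90.3% to 91.6% of them per FPKM library came out whole within 0.02 reads. Read numbers of 20536 of 20540 genes above 0 were then whole, for 14310 of them at a known transcript length and for the others by a search over lengths, which is no check. Because the batches hold different units, limma 3.58.1 under R 4.3.3 gave the main test (trend, two-sided) on log2(value + 1), with group and batch as terms over 8 libraries, 3 residual and 3.27 prior degrees of freedom, and a threshold of 0.05 after Benjamini-Hochberg adjustment. The labels do not say that replicates were separate cultures: p-values cover the spread among these samples alone, and it may be technical. Deviations from group means correlated at 0.864 to 0.954 across genes between libraries of a batch. The batches also differ in unit, so this value cannot tell a pairing of samples from the gap between RPKM and FPKM. EdgeR 4.0.16 (quasi-likelihood) on counts and recovered reads was an alternative, beside other pseudocounts, filters, folds, scalings, transcript sums, no batch term and each library left out. Both fits were tested on simulated data. Values in every library are printed for members with at least 5 FPKM in a fibroblast or day-20 library or called in a contrast; the others are given by range or by the values that differ. 1 gene of the pathway list is counted but not reported by name here.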

Additional observations from a re-analysis of the deposited data

Results flagged for a closer look

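Ifit2 and Xaf1 differed between genotypes in opposite directions at the 2 stages, each by at least 1.5-fold on the log2(FPKM + 1) scale. Ifit2 went from 11 FPKM in f/f to 5.84 in the library labelled DKO in fibroblasts and from 3.64 to 9.46 at day 20, so that the day-20 difference exceeded the fibroblast one by 1.99. Xaf1 went from 17.9 to 9.68 FPKM in fibroblasts and from 7.37 to 13.8 at day 20, a gap of 1.65. With 1 library per group neither difference between the stages was tested.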

How the results depend on the processing

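The fibroblast and day-20 counts depended on how low values were treated. The 27 members past the fold between fibroblasts became 15 with a pseudocount of 5, 17 with a mean of at least 5 and 10 with a fold of 4. The 5 at day 20 (4 lower, 1 higher) became 1, 2 and 1 under the same settings, and 14 with a fold of 1.5. From f/f fibroblasts to f/f day 20 the 29 became 15, 19 and 9. Between the libraries labelled DKO the 5 became 0, 1 and 0, and 8 with a fold of 1.5. From DKO ESC to fibroblasts the 13 became 4, 7 and 3. In the tested contrasts, a mean of at least 5 gave 0 members for genotype in ESC, 0 in bodies and 4 for f/f bodies against ESC, and testing every gene gave 0 in bodies and 1 for f/f bodies against ESC, where quantile scaling gave 4 and edgeR 5. With no replicate block (no batch term) the counts were 0 in ESC, 0 in bodies and 0 for f/f bodies against ESC. That block is the batch, which also sets the unit. Leaving out 1 library gave 0 to 1 in ESC, 0 to 6 in bodies and 0 to 10 for f/f bodies against ESC; a group left with 1 library is assumed to vary like the others. No result changed direction under the settings run; apart from the settings named, the causes were not tested. Depth limits members below 1 FPKM, where a library holds few reads.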
